A study of Mus musculus with 3 samples.

Results

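The libraries compared here come from T-follicular regulatory (TFR) cells that carried constitutively active NFATc1/αA, called αA, and from TFR cells labelled NFATc1-deficient, called the library labelled N. TFR cells are regulatory T cells that enter B-cell follicles and restrain the germinal center reaction. Mice of genotype *Nfatc1* fl/fl.*Prdm1* gfp/+.FIC gave the library labelled N and *Nfatc1* caaA.*Prdm1* gfp/+.FIC mice gave αA, 1 library each. In both, 1 allele of *Prdm1*, the gene of Blimp-1, holds a GFP reporter, and FIC is a Cre recombinase made from the *Foxp3* locus, which removes the floxed *Nfatc1* sequence in N and in αA goes with constitutively active NFATc1/αA in Tregs. The study found this Cre active in some conventional T cells too. The third library of the series, PαA, carries in addition a floxed *Prdm1* allele opposite the reporter, so that Blimp-1 is removed as well, and its values stand beside those of αA as context only. All mice had been immunized with 125 µg NP-KLH in alum and boosted on day 7. B220- CD4+ Blimp-GFP+ CXCR5+ GITRhi cells were sorted from spleen and mesenteric lymph nodes on day 10. The number of mice behind a library is not given in the sources used here. All 25759 genes of the files entered, of which 22044 have an exon length, and 6887 had an RPKM above 5 in N or αA and are called expressed. RPKM is the number of reads per kilobase of exon, scaled to the depth of the library. With 1 library a side no spread between mice can be given, and what follows describes these libraries without a test.

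NFAT factors wait in the cytoplasm of resting T cells. A signal from the T-cell receptor raises calcium, the phosphatase calcineurin strips phosphates from NFAT, and the factor enters the nucleus, where it often binds DNA together with AP-1. NFATc1/αA is the short isoform that activated T cells make from the inducible promoter of the gene. Blimp-1 marks effector Tregs, the activated Tregs that move into tissues or follicles and make suppressive molecules.

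The library totals were 29726219 reads for N and 27239921 for αA, with 27637953 and 24258845 of them on exons. For *Nfatc1* the RPKM stood at 63.6 (N), 62.9 (αA) and 32.4 (PαA). The level of the targeted gene therefore did not separate the libraries by label. The values are totals per gene, from which a loss of the floxed sequence alone could not be checked, and every direction below rests on the labels. All 12 of a list of TFR marker genes were expressed, among them *Foxp3*, *Cd4*, *Cxcr5*, *Icos*, *Pdcd1* and *Bcl6*. None of the 12 passed 2-fold, which says little, as just 4.02% of expressed genes did. Past 1.5-fold by RPKM were 3 lower markers and 1 higher, *Cxcr5*. This was 33.3% of the list, where expressed genes at large had 13.7%, and the lower ones were 25% where they had 10.9%. The lower markers were *Pdcd1*, *Foxp3* and *Bcl6*, with log2 differences between αA and N of -0.73, -0.64 and -0.62. The summed level of the 12 markers was 5082 RPM in N and 4742 RPM in αA, where RPM is the number of exon reads per 1000000 reads of the library. The genes of the sort markers, *Cxcr5*, *Tnfrsf18* (GITR), *Cd4* and *Prdm1*, had log2 differences between αA and N of 0.75, -0.48, -0.30 and -0.04, and since the cells were gated on their products these are no finding.

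Most genes differed little, and more were lower than higher in αA. Past 2-fold between αA and N were 277 of the 6887 expressed genes (4.02%), 88 (1.28%) higher and 189 (2.74%) lower in αA. Past 1.5-fold there were 946 (13.7%), 195 (2.83%) higher and 751 (10.9%) lower. The balance depended on the scaling. The median expressed gene had a log2 difference of -0.14 by RPKM and 0.02 after edgeR's TMM factors, which gave 236 genes (3.43%), 115 (1.67%) higher and 121 (1.76%) lower, so that 48.7% of the genes past 2-fold were higher against 31.8% by RPKM. The log2 difference of a gene is the log2 of its RPKM in αA over that in N, with a 95% Clopper-Pearson interval of the read counts. These intervals cover counting error only, because reads amplified by PCR are not independent molecules, and they compare libraries, not genotypes. Medians of gene lists are given relative to the median of all expressed genes, a difference that no scaling by library changes.

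**Figure D1:**
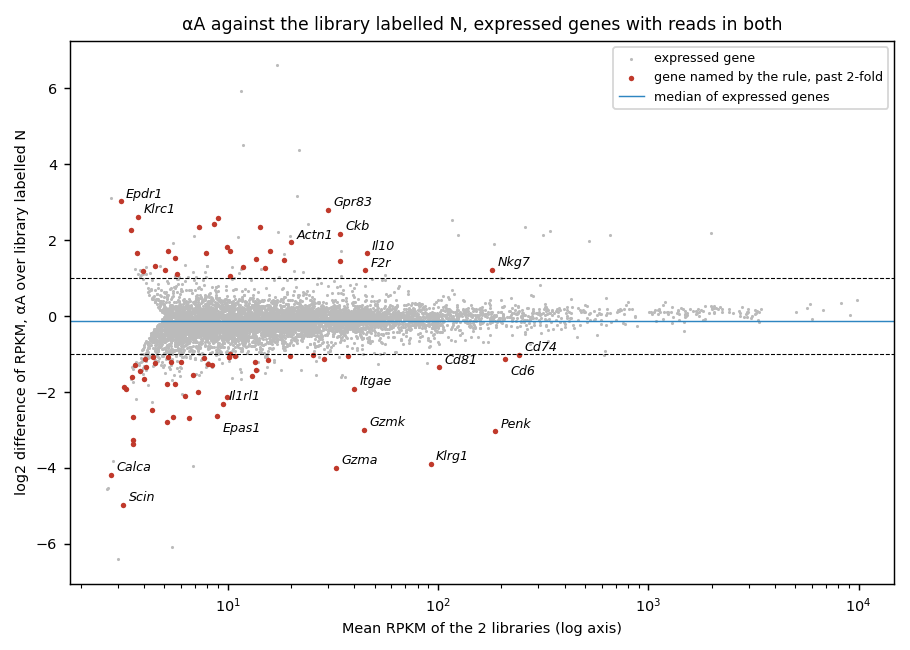
Each point is an expressed gene with reads in both libraries, with the mean RPKM of N and αA on a log axis and the log2 difference of RPKM, αA over N, on the vertical axis. Dashed lines mark 2-fold and the blue line the median of -0.14. Among the genes labelled in the plot, *Penk*, *Klrg1*, *Gzma* and *Gzmk* lie furthest below the lower line at their levels, and *Gpr83*, *Ckb*, *Il10* and *Actn1* above the upper one.

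Near the threshold, *Ly86* at 1.02 and *Ccr4* at -1.003 lay just past 2-fold. *Usp18*, an interferon-induced protease, at 0.99 and *Trim24*, whose unrounded ratio was just short of 2-fold, lay just within it. Of the 88 higher genes, 24 were predicted genes, clone names or receptor gene segments, 34 had under 50% unique reads in the library with the higher level and 8 are markers of other cells. Once all of these were left out, 48 remained. Of the 189 lower genes, 14, 25 and 9 fell in these classes, and 149 remained. A gene above the RPKM limit in N alone could only be lower in αA, and a gene above it in αA alone only higher. Some of the genes counted in the lists below are of this kind. The genes lower past 2-fold were more often weakly expressed than genes at large. Of the lower genes 112 (59.3%) had an RPKM under 10 in the library with the higher level, against 31 of the higher genes (35.2%) and 29.8% of all expressed genes. The interval lay wholly beyond 2-fold for 61 and 116.

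The clearest group was that of genes known from Tregs in non-lymphoid tissue. The list had 30 measured and 21 expressed members. Of these, 8 were lower and 0 higher past 2-fold, 38.1% against 4.02% of all expressed genes. Past 1.5-fold were 13 lower and 1 higher, 66.7% against 13.7%. The list median stood 0.60 below that of all expressed genes, the lowest of the 47 lists with 8 or more expressed members. With the TMM factors 7 of the 8 stayed past 2-fold. Several members had been known as low from these libraries when the list was drawn up, so the count describes the list only.

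*Il1rl1* (ENSMUSG00000026069, chromosome 1 from 40429570 to 40465415 in GRCm38) encodes ST2, the receptor for the alarmin IL-33. Its RPKM was 15.8 for N, 3.20 for αA and 8.43 for PαA, and its log2 difference -2.31 (interval -2.44 to -2.18). *Itgae* (ENSMUSG00000005947, chromosome 11 from 73090583 to 73147446) encodes CD103, the integrin chain that holds T cells at epithelia. At an RPKM of 63.3 for N, 16.8 for αA and 19.3 for PαA, it gave a log2 difference of -1.91 (-1.98 to -1.85). It was thus high in N alone. *Areg*, which encodes the tissue repair factor amphiregulin, had 7.97, 2.30 and 1.10 in N, αA and PαA, and a log2 difference of -1.80 (-2.18 to -1.43) from 288 and 76 reads. *Il9r*, the receptor of IL-9, was at 6.08 in N and 1.94 in αA and stood near the N level in PαA at 5.28. *Nrip1*, a nuclear receptor corepressor, had log2 difference -1.28. *Gata3*, the T-helper-2 factor that many tissue Tregs carry, had 53.6 and 28.7, a log2 difference of -0.90 that is short of 2-fold, and *Batf*, which drives effector Treg differentiation, had 141 and 131. The 1 member higher past 1.5-fold, the chemokine receptor gene *Cxcr6*, had 88.9 and 143, with only 3.99% of its reads unique in αA.

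Genes of suppressive mediators went both ways past 2-fold, while those of the neuropeptide list past 2-fold were lower in αA. *Penk* (ENSMUSG00000045573, chromosome 4 from 4133531 to 4138819) encodes proenkephalin, the precursor of opioid peptides, and was the best measured of the strongly lower genes. Its reads numbered 16144, 1809 and 1302 in N, αA and PαA, which is 332, 40.6 and 31.3 as RPKM. The log2 difference was -3.03 (-3.10 to -2.96). *Calca*, the gene of the calcitonin gene-related peptide, had 257 and 13 reads (RPKM 5.28 and 0.29), a log2 difference of -4.18 (-5.11 to -3.38). The neuropeptide, semaphorin and axon guidance list as a whole had 13 expressed members and a median 0.41 below that of all expressed genes. Past 2-fold 3 were lower (*Penk*, *Calca* and *Plxnd1*, a semaphorin receptor) and 0 higher, 23.1% against 4.02% of all expressed genes. Among 20 expressed suppressive mediators, *Penk* and *Areg* were lower and *Il10* and *Il1rn*, the decoy ligand of the IL-1 receptor, higher past 2-fold. That is 20%, against 4.02% of all expressed genes. *Ebi3*, a subunit of IL-35 and IL-27, had 50.4 and 27.9, and *Entpd1*, the ATP-degrading ectoenzyme CD39, 18.4 and 29.2, both short of 2-fold. The median of this list lay 0.08 above that of all expressed genes.

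**Figure D2:**
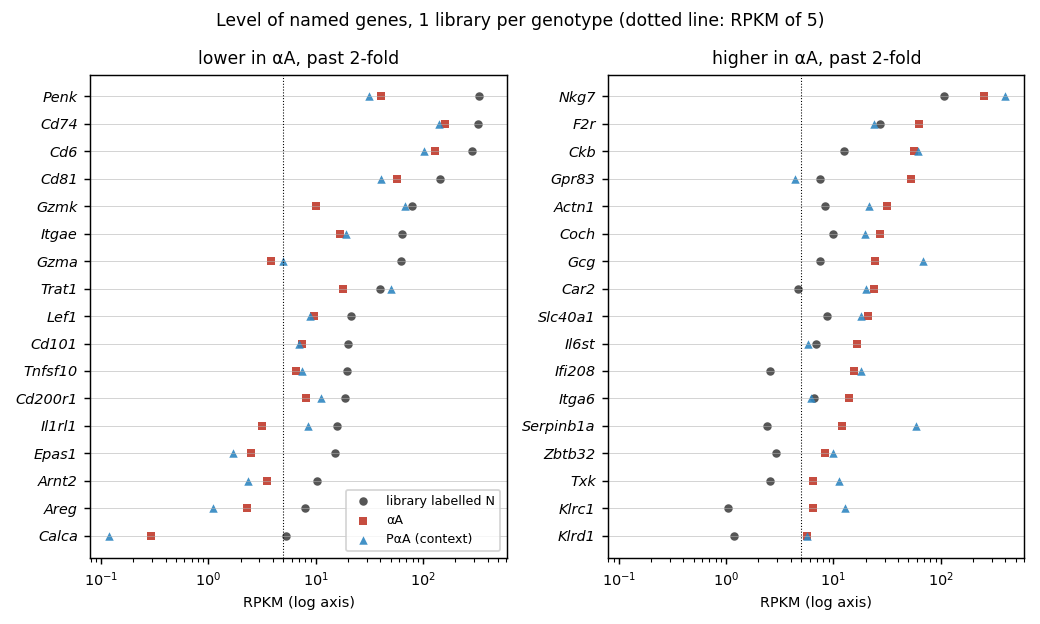
RPKM on a log axis of 17 genes lower and 17 genes higher past 2-fold in αA, set against the library labelled N, with 1 point for each library, circles for N, squares for αA and triangles for PαA. *Penk*, *Itgae*, *Gzma*, *Epas1* and *Cd101* are high in N alone, *Gzmk* and *Trat1* are low in αA alone, and *Gpr83*, *F2r*, *Il6st* and *Itga6* are high in αA alone.

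Among 21 expressed cytotoxic and inflammatory genes, a pair of granzymes was much lower in αA, while the list median stood 0.28 above that of all expressed genes. Granzymes are proteases of killer cells that some Tregs also make. *Gzma* (ENSMUSG00000023132, chromosome 13 from 113093825 to 113100981) had 1848, 106 and 126 reads in the 3 libraries, an RPKM of 61.8, 3.87 and 4.92, and a log2 difference of -4.00 (-4.29 to -3.71). *Gzmk* (chromosome 13 from 113171608 to 113225908) had 79.4, 9.99 and 67.8, a log2 difference of -2.99 (-3.15 to -2.84). PαA was therefore low for *Gzma* and near N for *Gzmk*. *Nkg7*, a protein of cytotoxic granules, went the other way with 108, 252 and 401, a log2 difference of 1.22 (1.16 to 1.29). *Xcl1*, a chemokine that attracts cross-presenting dendritic cells, had 14.2 and 27.7, *Fasl*, the ligand of the death receptor Fas, 4.67 and 7.37, and *Ccl5*, a chemokine of effector T cells, 816 and 432, each short of 2-fold.

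A pair of receptor genes known from natural killer (NK) cells was higher in αA. *Klrc1* (NKG2A) and *Klrd1* (CD94) pair into an inhibitory receptor for the nonclassical MHC molecule Qa-1. *Klrc1* had 62, 349 and 645 reads in N, αA and PαA, an RPKM of 1.05, 6.46 and 12.8 and a log2 difference of 2.62 (2.23 to 3.03), with 64.2% of its αA reads unique. *Klrd1* had 38, 169 and 155 reads (RPKM 1.18, 5.72 and 5.61), a log2 difference of 2.28 (1.76 to 2.83). Both were low in N only. Of 25 measured genes of NK lectins and innate-like receptors just 4 were expressed, the pair and the adaptors *Tyrobp* and *Fcer1g*. The adaptors had log2 differences of 0.05 and 0.32. *Klrc1* and *Klrd1* were above the RPKM limit of 5 in αA but not in N. Their direction therefore followed from the level filter, and the list gives no count by direction. A list of 6 NK-cell markers summed to 86.0 RPM in N, 20.7 in αA and 35.4 in PαA, most of it in N from *Gzma* itself. *Ncr1*, a receptor typical of NK cells, had 12, 15 and 10 reads, while *Klra4* and *Klra8* had 8 and 21 reads in N and 0 in αA. The part of NK cells in these values was not tested. In bulk RNA, fewer cells of a type and less RNA per cell cannot be told apart.

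In the list of inhibitory receptors, which leaves out *Klrc1* and *Klrd1*, the members past 2-fold were lower in αA. Of 13 expressed members 3 were lower past 2-fold, besides *Klrg1* the immunoglobulin family receptors *Cd101* and *Cd200r1*, and 0 higher. That is 23.1%, against 4.02% of all expressed genes. *Cd101* had 19.8, 7.49 and 7.02 in N, αA and PαA (log2 difference -1.41, interval -1.53 to -1.28), and *Cd200r1* 18.7, 8.14 and 11.3 (-1.20, interval -1.36 to -1.04). *Pdcd1*, which encodes PD-1, had 341, 205 and 147, and *Cd96* 82.3, 42.8 and 76.1, neither past 2-fold. Higher in αA, and within 1.5-fold, were 3 members, among them *Ctla4*, the receptor that competes with CD28 for its ligands, with 148, 188 and 58.7 and a log2 difference of 0.35 (0.31 to 0.39). The list median was 0.17 below that of all expressed genes.

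Genes around the T-cell receptor differed in both directions. Of 30 expressed genes of the receptor complex and its proximal signalling, 1 was higher and 2 were lower past 2-fold, which is 10% against 4.02% of all expressed genes. Past 1.5-fold were 2 higher and 8 lower members, 33.3% against 13.7%, while the list median equalled that of all expressed genes to 2 decimals. *Cd3e* had 462 in N and 518 in αA. *Cd6*, a scavenger-family receptor that tunes T-cell receptor signals, was the most abundant gene of all lists to differ so much on mainly unique reads, apart from *Penk* and *Cd74*, with 284, 131 and 102 in N, αA and PαA and a log2 difference of -1.12 (-1.15 to -1.09). *Trat1*, a transmembrane adaptor of the receptor, had 39.5, 17.98 and 50.6 (-1.14, interval -1.33 to -0.95) and was low in αA only. *Txk*, a Tec-family kinase, was higher with 2.58, 6.45 and 11.2 (1.32, interval 1.07 to 1.58). With the TMM factors *Cd6* and *Trat1* stood at -0.96 and -0.98, just short of 2-fold. *Cd81*, a tetraspanin that costimulates T cells, had 145, 57.0 and 40.8, a log2 difference of -1.35 (-1.42 to -1.29). Among costimulatory and TNF superfamily genes, *Tnfsf10*, which encodes the death ligand TRAIL, had 19.6, 6.53 and 7.49, a log2 difference of -1.58 (-1.69 to -1.48). *Cd27* passed 2-fold the other way with 132 and 265, but only 21.97% of its αA reads were unique, so that its reads may belong to another gene.

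Few genes of the NFAT pathway passed 2-fold. Of 13 expressed NFAT, calcineurin and regulator genes only *Ppp3ca*, a catalytic subunit of calcineurin, differed more than 2-fold (7.69% against 4.02%). It had 13.7, 6.49 and 5.32 in N, αA and PαA, a log2 difference of -1.08 (-1.19 to -0.96) by RPKM, -0.92 with TMM factors and -0.85 against genes of equal exon length. Its transcripts are long, and the list's 13 members have a median exon length of 6167 bases. None of 18 expressed genes of calcium entry and stores, 19 transcription factors induced by the T-cell receptor, 8 AP-1 genes, 20 NF-kB genes and 14 MAPK genes and phosphatases passed 2-fold. Past 1.5-fold were 4 of the calcium genes (22.2%) and 4 of the NF-kB genes (20%), all lower. Of all expressed genes 13.7% passed 1.5-fold either way and 10.9% were lower. *Orai2*, a calcium channel subunit, had 16.6 and 9.56, and *Nr4a1*, an early target of receptor signals, 39.6 and 21.3. *Dusp2*, a MAPK phosphatase, had 57.3 and 86.1, *Junb* 207 and 169, and *Nfkb1* 88.0 and 57.3.

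Transcription factors of lineages were more often lower than higher in αA, as were all expressed genes by RPKM. Of 36 expressed members 4 were lower and 1 was higher past 2-fold, 13.9% against 4.02% of all expressed genes. Past 1.5-fold were 9 lower and 2 higher members, 30.6% against 13.7%, and the lower ones alone were 25% against 10.9%. With the TMM factors 3 members were lower and 1 was higher past 2-fold. *Epas1* (ENSMUSG00000024140, chromosome 17 from 86753907 to 86833410), the hypoxia factor HIF-2α, was read 2414, 358 and 228 times in N, αA and PαA. Its RPKM was 15.3, 2.48 and 1.69, with a log2 difference of -2.63 (-2.79 to -2.47). *Arnt2*, which encodes a partner of HIF factors, had 10.2, 3.50 and 2.36 (-1.54, interval -1.67 to -1.42). Both were high in N alone. Of 30 expressed glycolysis and hypoxia genes 0 passed 2-fold, against 4.02% of all expressed genes. Past 1.5-fold 7 were lower and 0 higher, and the lower ones were 23.3% against 10.9%. Among them was the glucose transporter *Slc2a1* with 17.4 and 10.4. The list median was 0.11 below that of all expressed genes. *Satb1*, a chromatin organizer needed for Treg development, had 6.29 and 2.68, and *Lef1*, which acts with *Tcf7* in naive and follicular T cells, 21.5 and 9.66, log2 differences of -1.23 and -1.15. *Tcf7* itself had 150 and 203. *Lef1* was at -0.99 with TMM factors. *Zbtb32*, a repressor known from activated lymphocytes, was higher with 2.90, 8.33 and 9.83 in N, αA and PαA (1.52, interval 1.25 to 1.79). *Pou2af1*, a coactivator of Oct factors, had 13.8 and 6.50 (-1.08, and -0.92 with TMM factors), and *Hlf*, a PAR bZIP factor, 5.13 and 2.09.

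Cytokine RNA was scarce, and 16 of 33 genes were expressed. The T-helper cytokines *Il4*, *Il13* and *Il17a* were lower in αA by exon reads. Their few intron reads went the other way, with 31 in N and 78 in αA for *Il4*, 0 and 17 for *Il17a*, and 0 and 3 for *Il13*. *Il13* had 211 and 76 exon reads (RPKM 5.89 and 2.32), a log2 difference of -1.35 (-1.75 to -0.96). *Il17a* had 184 and 55 reads, 5.29 and 1.72 (-1.62, interval -2.08 to -1.17). With *Areg* and *Il4* they made 4 lower genes past 2-fold, against 1 higher, *Il10*, and each remained past 2-fold with the TMM factors. By RPKM that is 31.25% of the expressed cytokine genes, against 4.02% of all expressed genes. The 4 lower genes were above the RPKM limit of 5 in N but not in αA. Their direction therefore followed from the level filter, and the share describes weakly expressed genes. *Ltb*, the most abundant gene of the list, had 637 and 552, a log2 difference of -0.21. Of 24 expressed interleukin receptor genes and their antagonists, *Il1rl1* and *Il9r* were lower and *Il6st* and *Il1rn* higher past 2-fold (16.7% against 4.02%). *Il6st* encodes gp130, the signalling chain shared by IL-6 family receptors. It had 6.85 in N, 16.7 in αA and 5.81 in PαA and so was high in αA alone. In the JAK-STAT list *Socs5*, a suppressor of cytokine signalling, had 8.39 and 3.63 (-1.21) beside *Jak2*, and 22 of the 24 expressed members lay within 2-fold.

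Genes higher in αA on mainly unique reads had quite different roles. *Gpr83* (ENSMUSG00000031932, chromosome 9 from 14860210 to 14870789), an orphan-type receptor known as a Treg signature gene, was read 801, 5119 and 404 times in N, αA and PαA. Its RPKM was 7.51, 52.4 and 4.42, a log2 difference of 2.80 (2.69 to 2.91). It was high in αA alone. *F2r*, the thrombin receptor PAR1, had 27.3, 62.8 and 23.9 (1.20, interval 1.14 to 1.27) and again was high in αA alone. In the list of egress and G-protein receptors 2 of 24 expressed members were higher and 0 lower past 2-fold, 8.33% against 4.02% of all expressed genes. Past 1.5-fold were 6 higher and 0 lower, 25% against 13.7%. *S1pr1*, the exit receptor, had 55.5 and 88.0. *Gpr18* and *Gpr183* were higher past 1.5-fold, with log2 differences of 0.99 and 0.78, but only 0.80% and 2.91% of their reads were unique. *Actn1*, the actin crosslinker α-actinin 1, which naive T cells carry, had 8.28, 31.8 and 21.6 (1.94, interval 1.84 to 2.05). *Ckb*, the brain-type creatine kinase, had 12.4, 56.1 and 61.1 (2.17, interval 2.04 to 2.31).

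Naive and recirculating T-cell genes and adhesion genes went both ways. Of 21 expressed members of the first list, *Actn1* and *Ccr7* were higher and *Itgae*, *Satb1* and *Lef1* lower past 2-fold (23.8% against 4.02%). The median of this list lay 0.26 above that of all expressed genes. *Cd7* had 10.1 in N, 16.4 in αA and 68.2 in PαA. Among 23 integrin and adhesion genes, *Itga6*, the laminin receptor chain α6, was higher with 6.65, 13.9 and 6.19 (1.06, interval 0.96 to 1.17) and was high in αA alone. *Itga4*, the α4 chain that binds VCAM-1, was lower with 50.2, 24.3 and 24.6, a log2 difference of -1.04 by RPKM that was -0.88 with TMM factors. *Tln1*, a long transcript for the integrin activator talin, had 70.2 and 41.9. In the list of activation markers *Cd24a* was higher with 3.03 and 7.04. Of the cytoskeleton list, *Ahnak* and *Marcksl1* were lower by just over 2-fold and 42 of 44 members lay within it. *Ahnak*, a giant scaffold protein, had 14.6 and 6.99, and its log2 difference of -1.06 became -0.38 against genes of equal exon length.

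Other genes past 2-fold with at least 100 reads had little in common by role. Among the higher ones, *Epdr1*, an ependymin-related gene, had 50 and 373 reads and the highest log2 difference of the named genes, 3.03 (2.60 to 3.48), *Serpinb1a*, an inhibitor of neutrophil proteases, stood at 2.38, 12.1 and 58.7 (RPKM) in N, αA and PαA, and *Ifi208*, of the interferon-inducible Ifi200 family, 2.58, 15.4 and 18.03. *Hspb1*, a small heat-shock protein, had 4.34, 15.4 and 4.76, with 59.7% unique reads. *Gcg*, the glucagon precursor gene, had 251 and 748 reads. *Sept5*, a septin, *Prg4*, the lubricant lubricin, *Arl4d*, a small GTPase, and *Coch*, cochlin, had log2 differences of 1.72, 1.71, 1.67 and 1.48. Among the lower ones, *Scin*, an actin-severing gelsolin relative, had 550, 16 and 0 reads in N, αA and PαA. *Wdfy1* had 1064 and 94 reads, and *Sytl2*, which tethers secretory vesicles, 1236 and 165. *Nav2* had 2654 and 386 and *Bace2*, a protease related to β-secretase, 562 and 140. *Atp6v0d2*, a proton pump subunit, *Fam69c*, *Slc7a10*, an amino acid transporter, and *Tmem51* had log2 differences of -2.64, -2.46, -2.10 and -1.92, and *Sfn*, a 14-3-3 protein, had 551 and 126 reads. *Hist1h2ah* had 351 and 0 reads, at least 107-fold lower against a floor of 3 reads, but 0% of them were unique.

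The lists of survival, division and metabolic genes held small numbers past 2-fold. Of 30 expressed apoptosis genes *Bcl2* and the death-promoting *Pmaip1* (Noxa) were lower by just over 2-fold, 6.67% against 4.02% of all expressed genes. Neither passed with the TMM factors. Of 32 cell-cycle genes only *Top2a*, the topoisomerase of dividing cells, passed (3.125%), with 10.5 and 4.87, and *Pcna* had 153 and 152. In the list of amino acid and mTOR genes *Rptor*, a subunit of mTORC1, had 7.08 and 3.36, and in that of cyclic AMP genes *Pde3b*, a phosphodiesterase, 5.55 and 2.54. Both fell short with the TMM factors, at -0.92 and -0.97. *Slc40a1*, the iron exporter ferroportin, was higher with 8.75, 21.1 and 18.2 in N, αA and PαA. None of 52 expressed interferon-stimulated, 21 MHC class I, 32 cholesterol and fatty acid, 39 ER secretory, 35 autophagy and lysosome, 38 proteasome, 41 translation factor, 76 nuclear oxidative phosphorylation, 13 mitochondrially encoded, 79 ribosomal protein and 8 GIMAP genes passed 2-fold. Oxidative phosphorylation genes ran from -0.38 to 0.40 and ribosomal protein genes from -0.32 to 0.32, with medians 0.16 and 0.25 above that of all expressed genes. Both groups have short transcripts, with median exon lengths of 1080.5 and 975 bases.

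**Figure D3:**
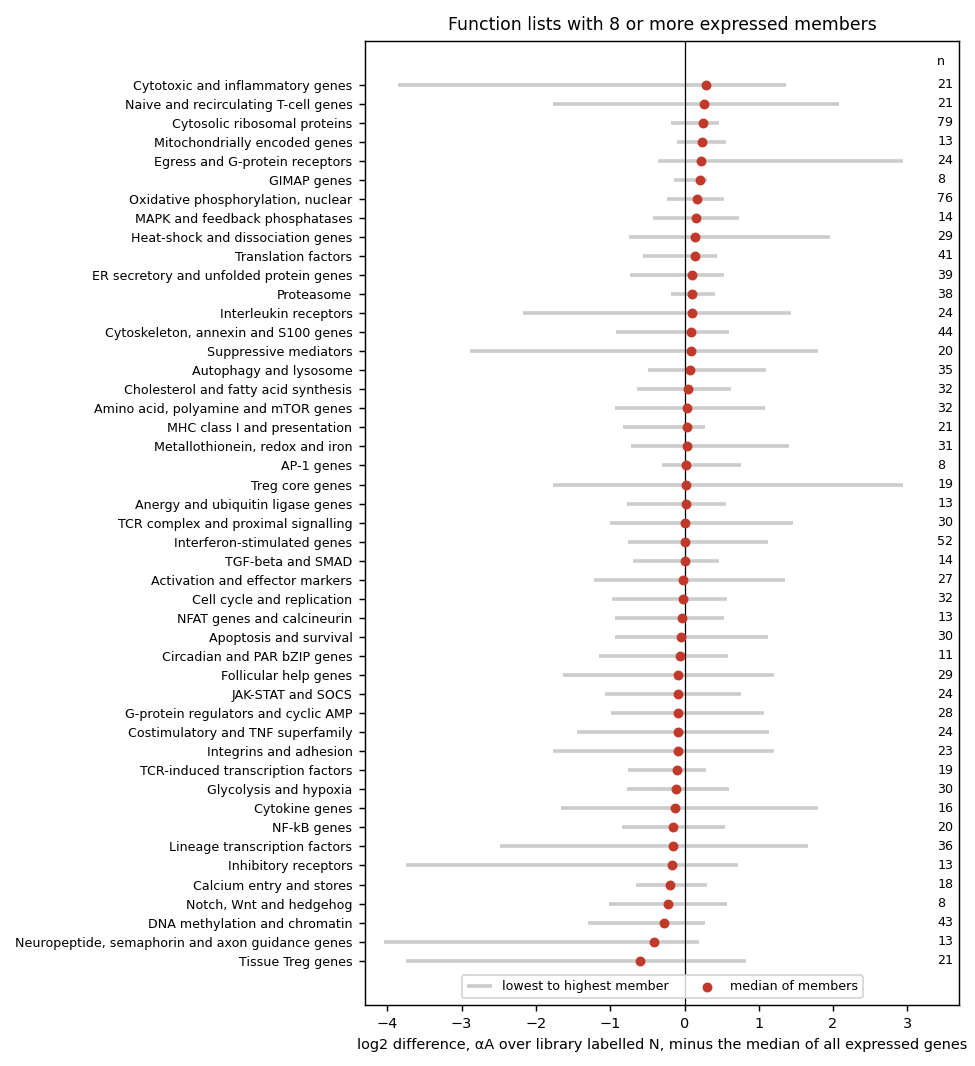
For each function list with 8 or more expressed members, the red point is the median log2 difference of its members, αA over the library labelled N, minus the median of all expressed genes. The grey line runs from the lowest to the highest member, and the number of expressed members stands at the right. Tissue Treg genes lie lowest at -0.60, and the medians of 45 of the 47 lists lie within 0.30 of the line at 0.

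The log2 difference moved with transcript length. With the expressed genes in 5 equal bins by exon length, the median log2 difference was -0.02, -0.07, -0.13, -0.18 and -0.30 from the shortest to the longest. The longest bin held 61 of the 189 genes lower past 2-fold and 4 of the 88 higher ones. Chromatin genes, many with long transcripts, were more often lower than higher. Of 43 expressed genes of DNA methylation and chromatin, with a median exon length of 5557 bases, 4 were lower and 0 higher past 2-fold. That is 9.30%, against 4.02% of all expressed genes. Past 1.5-fold were 15 lower and 0 higher, 34.9% against 13.7%. *Setd2*, a histone methyltransferase, had 5.56, 2.06 and 1.82 in N, αA and PαA (-1.44, interval -1.59 to -1.29), and *Kat6a*, a histone acetyltransferase, 11.4, 4.72 and 4.56 (-1.27, interval -1.36 to -1.17). The list median was 0.27 below that of all expressed genes and 0.20 below relative to genes of the same length, an adjustment chosen after the data were seen. With that adjustment *Setd2* stood at -1.04 and *Kat6a* at -0.85. For tissue Treg genes, which have a median exon length of 2438 bases, the median relative to genes of the same length was -0.61. The part of RNA quality or fragment length in these values was not tested.

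**Figure D4:**
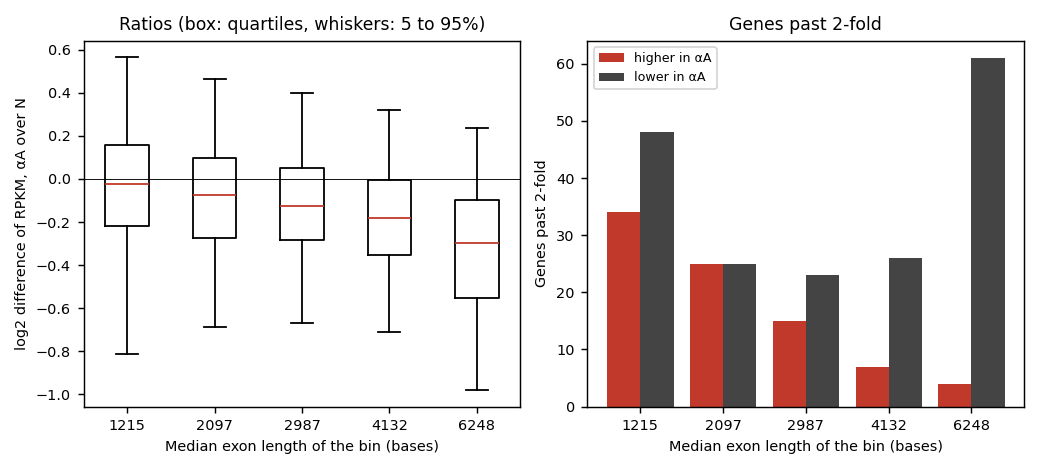
Expressed genes in 5 equal bins by exon length, named by the median exon length in bases. The left panel shows boxes of the log2 difference, αA over the library labelled N, with quartiles and whiskers from the 5th to the 95th percentile, and the right panel the number of genes past 2-fold. The median falls from -0.02 to -0.30 with length, and 61 of the lower genes are in the longest bin.

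Reads on introns gave a further look at the same genes. Introns took 3.62% of gene reads in N and 5.30% in αA, and over the 2896 expressed genes with at least 50 intron reads in N or αA the median log2 difference of intron reads, scaled to the library totals, was 0.32. A gene could reach this number in 1 library alone, so genes past 2-fold by exon reads are not counted by their intron reads and only examples are given. *Penk* had 60 intron reads in N and 6 in αA, *Gzmk* 216 and 53, *Tnfsf10* 512 and 120, and *Nav2* 1572 and 717. In the other direction *Actn1* had 9 and 105, *Ifi208* 9 and 85, and *Zbtb32* 6 and 42. The exon and intron reads of these genes went in one direction. *Il1rl1* with 11 and 18, *Epas1* with 48 and 54, *Setd2* with 62 and 165 and *Scin* with 3 and 44 did not. Predicted genes made of satellite repeat took 0.0869% of exon reads in N and 0.417% in αA, and all 12 were higher past 2-fold. Whether DNA or unspliced RNA gave these reads was not tested.

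Genes of other cells moved with the libraries. All 5 expressed erythroid markers were higher past 2-fold, and the list summed to 381 RPM in N, 1579 in αA and 1411 in PαA, with 0 of its 7 measured genes at 0. *Hbb-bs*, a β-globin gene, had an RPKM of 213, 835 and 785, with 29.3% of its αA reads unique. *Car2*, a carbonic anhydrase that red cells also contain, had 4.67, 23.7 and 20.04 (2.34, interval 2.15 to 2.54). Its order was that of the erythroid markers. Among macrophage genes *Cd5l*, *Fcna* and *Clec4n* were higher past 2-fold with log2 differences of 2.43, 1.51 and 1.66, as were *C1qa* with 35.8 and 75.8 and *Adgre1* with 2.30 and 5.32, whereas *Lyz2* had 214 and 134 and *Saa3* 459 and 5 reads. The 13 measured monocyte and macrophage markers summed to 536 and 534, with 0 of them at 0 in either library. Splenic macrophages are known for ferroportin, the product of *Slc40a1*. Lower in αA were neutrophil genes, with 10 of 14 markers at 0 in αA and 0 of 14 in N (sums of 47.2 and 40.3, the latter mostly *Mmp9*). Stroma and endothelium markers summed to 149 in N and 44.8 in αA. *Sparc*, a matrix protein of stroma, was lower with 519 and 50 reads and *Actg2*, a smooth muscle actin, with 523 and 74. *Cd74*, the invariant chain, is on the tissue Treg and the dendritic cell list alike and had 325 in N, 160 in αA and 140 in PαA (-1.02, interval -1.06 to -0.98), while the MHC class II genes *H2-Aa*, *H2-Ab1* and *H2-Eb1* were higher in αA, with 47.4 and 68.2, 30.0 and 47.7, and 39.8 and 57.0. *C3*, a complement gene of many non-T cells, had 16.1 and 3.69. The part of other cells in these values was not tested.

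**Figure D5:**
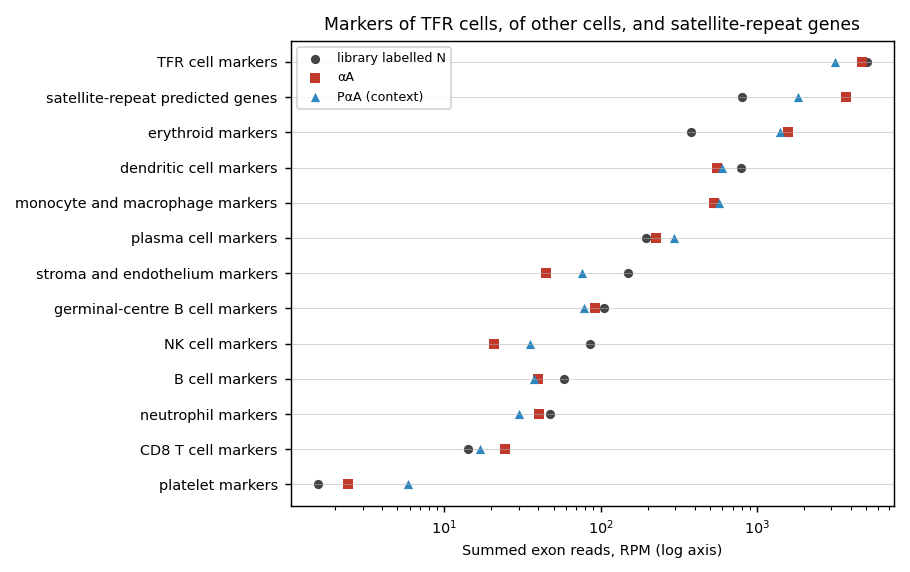
Summed exon reads, as RPM on a log axis, of marker lists and of the satellite-repeat predicted genes, with 1 point for each library. Erythroid markers and satellite-repeat genes are lowest in the library labelled N, at 381 and 808, and stroma and NK-cell markers highest there, at 149 and 86.0, while TFR markers stand at 5082 in N and 4742 in αA.

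The promoters of the genes past 2-fold were searched for short motifs of factors that the mice carry in altered form or that act with them. The windows run from 250 bases before to 50 after the start sites in RefSeq's annotation of GRCm38.p6, and both strands were read. Counted were genes with mainly unique reads, without predicted genes, segments and markers of other cells. The NFAT core TGGAAA stood in a window of 8 of 33 higher genes (24.2%) and 24 of 104 lower genes (23.1%). It stood in 18.8% of 4905 expressed genes with a window, and in 21.4% of all 32851 windows. The AP-1 motif TGANTCA stood in 4 higher (12.1%) and 5 lower genes (4.81%), against 5.30% of expressed genes and 7.81% of all windows. The Blimp-1 core AGNGAAAG stood in 0 higher and 8 lower genes (7.69%), against 8.62% and 8.63%. A match describes letters, not a bound site. Shown are, from the named genes past 2-fold with a TGGAAA, the 3 with the highest level among those lower in αA (*Gzma*, *Marcksl1*, *Tnfsf10*) and among those higher (*Gcg*, *Hspb1*, *Klrc1*), 5′ to 3′ on the strand of the gene, with the core in capitals, where TTTCCA is TGGAAA on the other strand.
Gzma (chr13:113100932-113101231, minus strand): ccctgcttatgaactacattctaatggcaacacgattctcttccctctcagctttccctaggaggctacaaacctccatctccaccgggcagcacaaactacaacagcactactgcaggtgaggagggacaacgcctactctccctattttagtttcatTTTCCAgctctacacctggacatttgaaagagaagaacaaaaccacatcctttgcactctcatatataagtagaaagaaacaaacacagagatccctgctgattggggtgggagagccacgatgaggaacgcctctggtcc
Marcksl1 (chr4:129513331-129513630, plus strand): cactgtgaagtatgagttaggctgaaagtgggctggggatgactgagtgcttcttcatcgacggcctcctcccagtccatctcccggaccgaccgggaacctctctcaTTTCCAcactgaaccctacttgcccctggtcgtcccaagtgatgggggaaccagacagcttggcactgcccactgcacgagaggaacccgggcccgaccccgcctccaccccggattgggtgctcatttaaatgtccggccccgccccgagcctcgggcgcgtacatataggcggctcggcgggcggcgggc
Tnfsf10 (chr3:27316827-27317126, plus strand): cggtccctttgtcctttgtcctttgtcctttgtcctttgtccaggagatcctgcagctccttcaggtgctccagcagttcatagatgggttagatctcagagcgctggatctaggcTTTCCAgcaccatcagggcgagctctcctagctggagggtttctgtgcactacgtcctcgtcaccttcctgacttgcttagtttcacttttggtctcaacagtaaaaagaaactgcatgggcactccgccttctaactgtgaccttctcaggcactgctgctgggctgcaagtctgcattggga
Gcg (chr2:62483604-62483903, minus strand): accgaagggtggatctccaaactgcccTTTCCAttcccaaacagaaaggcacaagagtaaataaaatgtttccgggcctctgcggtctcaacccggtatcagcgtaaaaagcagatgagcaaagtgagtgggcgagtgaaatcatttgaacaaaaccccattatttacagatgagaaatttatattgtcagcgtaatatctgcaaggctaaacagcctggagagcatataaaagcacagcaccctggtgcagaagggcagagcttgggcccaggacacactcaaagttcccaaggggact
Hspb1 (chr5:135887669-135887968, plus strand): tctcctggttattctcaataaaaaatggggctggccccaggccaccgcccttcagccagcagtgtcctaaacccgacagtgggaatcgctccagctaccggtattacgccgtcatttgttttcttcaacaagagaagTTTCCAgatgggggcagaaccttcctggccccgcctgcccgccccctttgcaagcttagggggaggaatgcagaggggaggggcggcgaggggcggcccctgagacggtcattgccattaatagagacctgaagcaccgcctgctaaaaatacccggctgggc
Klrc1 (chr6:129678924-129679223, minus strand): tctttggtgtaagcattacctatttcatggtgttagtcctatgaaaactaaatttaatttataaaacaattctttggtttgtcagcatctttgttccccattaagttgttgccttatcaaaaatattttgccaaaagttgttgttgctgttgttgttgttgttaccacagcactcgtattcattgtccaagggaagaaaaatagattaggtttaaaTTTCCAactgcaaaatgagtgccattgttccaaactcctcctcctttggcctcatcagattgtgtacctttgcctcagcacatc

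Each of the 6 windows held the core once. The genes shown differ in direction and size, from -4.00 for *Gzma* to 2.62 for *Klrc1*, and no feature of the windows was set against the ratios.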

How the data were processed

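Poly(A) RNA of sorted TFR cells was sequenced as single reads, 1 library per genotype. The authors trimmed reads, mapped them to GRCm38 and obtained gene counts with CLC Genomics Workbench. They deposited whole-number counts of total exon, unique exon and intron reads, which are not normalized, and RPKM and TPM with a decimal comma. RPKM equals exon reads per exon length and library total, which was recovered from these values. Genes with an exon length of 0 (3715) were left out. Genes above an RPKM of 5 in N or αA were compared by the ratio of RPKM, with exact Clopper-Pearson intervals (95%) and a floor of 3 reads. With 1 library per group no test was run. Groups come from the labels.

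The comparison and the 49 function and 12 marker lists were chosen with earlier results of these data known. Named genes are list members past 2-fold with at least 50 reads and 50% unique reads, the 20 highest and 20 lowest ratios with at least 100 reads (without predicted genes, segments, histones and other-cell markers), the 2 most expressed members of lists with few such genes, and targeted and sort genes. Some further genes were named after their values were seen. The annotation release is not given in the sources used here. The self-test ran before the comparison, on simulated counts drawn from the gene levels and library totals of the real files. Computations ran in Python 3.11.15 (scipy 1.17.1 for intervals, pandas 2.3.3, statsmodels 0.14.6 for lowess, numpy 2.4.6, and figures in matplotlib 3.10.9), and TMM factors came from edgeR 4.0.16 in R 4.3.3.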

Additional observations from a re-analysis of the deposited data

How the results depend on the processing

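The number of genes past 2-fold, 88 higher and 189 lower in αA, moved by over 1.5 times with the level filter and the fold. It was 247 and 666 above an RPKM of 1, 57 and 77 above 10, 1045 and 1659 with at least 10 reads and no level filter, 195 and 751 past 1.5-fold, and 42 and 50 past 3-fold. The lower genes alone moved with the scaling, to 121 with TMM factors and 120 with median-of-ratios size factors, to 117 with 1 added to both RPKM, and to 121 when centred on genes of equal exon length (by lowess with a fraction of 0.3, added after the data were seen). The higher genes alone moved, to 48, without predicted genes, non-unique genes and markers of other cells, also added after. TPM, unique reads and reads thinned to the smaller library kept both numbers within 1.5 times. Of 84 named genes past 2-fold, all kept their sign under thinning and length centring, as did the 83 with unique reads. Length centring changed none by more than 0.68, too little to turn a sign. Under TPM, TMM, median-of-ratios and the pseudocount no sign could turn at this size of difference. With TMM factors 69 remained past 2-fold, and with length centring 67. The 15 lost with TMM factors were lower in αA, from *Lef1* at -1.15 to *Pmaip1* at -1.01 by RPKM. No paired analysis was possible because each genotype has 1 library, and for the same reason no library could be left out. Depth limits genes with few reads, and the missing replicates limit all of them.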
